A study of Mus musculus with 6 samples.

Results

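The genes described here are the ligands and receptors of the tumour necrosis factor (TNF) superfamily whose annotated symbol begins with Tnfsf or Tnfrsf, apart from the BLyS and APRIL receptors Tnfrsf17, Tnfrsf13b and Tnfrsf13c. The RefSeq gene table held 30 genes under that rule, and 24 of them were measured, among 18193 genes in all. They were 7 ligands, 16 receptors and the antisense transcript Tnfsf13os. Tnfsf12, Tnfsf13 and the fusion gene Tnfsfm13 were covered only by probe sets that carry several symbols, and no probe set had the symbol of Tnfrsf26, Tnfsf15 or Tnfsf18. Expression was measured on 6 arrays of C57BL/6 mouse cells, 3 of plasma cells and 3 of B cells. The plasma cells were B220- CD138+ cells of the bone marrow, taken 7 days after a boost with the protein antigen keyhole limpet hemocyanin, enriched with magnetic beads and sorted, with 50000 to 70000 cells per array. The B cells were B220+ CD23+ naive follicular cells of the spleen, with 2000000 to 3000000 cells per array. Tissue, boost, enrichment and input all went with the cell type and cannot be told apart from it.

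TNF superfamily ligands are trimeric proteins, mostly held on the cell surface, and each binds a small set of receptors with cysteine-rich extracellular domains. Some receptors carry a death domain and can start apoptosis through FADD and caspase-8, others bind TRAF adaptors and activate NF-kB, and decoy receptors bind a ligand without passing on a signal. In B lineage cells the family is known for costimulation in the follicle, for survival signals in the marrow and for the control of cell death.

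Of the 24 genes, 3 rose and 1 fell in plasma cells. Over all genes 17.6% were called higher and 12.3% lower, so the family holds no larger share of changed genes than the array as a whole. Leaving out 1 array at a time gave 2 to 6 higher and 0 to 4 lower, and the 6 and 4 were without B cell array 1, which is described below. The genes that rose were Tnfsf10, which encodes the death ligand TRAIL, Tnfrsf1a, which encodes the TNF receptor TNFR1, and Tnfrsf18, which encodes the costimulatory receptor GITR. The gene that fell was the decoy receptor gene Tnfrsf22. The median log2 fold change was -0.08 over the 24 genes and -0.06 over all genes. Here and below a log2 fold change is that of log2(intensity + 16), plasma cells minus B cells, and a gene is called at an adjusted p under 0.05. The groups did not overlap for 8 of the genes, 4 higher and 4 lower, where 25.4% of all genes were separate with plasma cells higher and 22.4% with plasma cells lower.

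The sort markers Sdc1 and Fcer2a followed the labels. Ptprc, the gene of B220, was lower but still bright in plasma cells, at 4236 ± 60.7 (SD, n = 3) against 9453 ± 133. Whether its probe set reads the B220 form was not tested. Sdc1, which encodes CD138, averaged 12911 ± 282 (SD, n = 3) on the plasma cell arrays against 1072 ± 107 on those of B cells, and Fcer2a, which encodes CD23, averaged 48.1 ± 3.99 against 6032 ± 868. The level expected without a target was taken from bacterial control probe sets, and their 95th percentile ran from 23.0 to 41.8 over the arrays. Of the 24 genes 11 lay over that background on all arrays, 11 on some and 2 on none. B cell array 1 stood apart from the other B cell arrays, with correlations of 0.933 and 0.926 to them across probe sets, where those 2 arrays had 0.992 with each other. The summed intensity of 12 measured T cell and NK cell markers was 6769 on that array, 587 and 641 on B cell arrays 2 and 3, and 1399 to 2704 on the plasma cell arrays. For 10 granulocyte markers the sums were 13134, 2973 and 1958 on the B cell arrays and 8781 to 21019 on the plasma cell arrays, and for 9 monocyte and macrophage markers 6416, 4004 and 4392 against 2199 to 2897. Within background on arrays 2 and 3 lay 2 of the T and NK cell markers and 2 of the granulocyte markers, and on all plasma cell arrays 1 and 0. Xist, made from the inactive X, read 8408 on B cell array 1, 30.8 and 18.1 on the other B cell arrays and 8070 to 8702 on the plasma cell arrays. Results are therefore also given without B cell array 1, where sex is confounded with cell type and the effects cannot be told apart. With all arrays sex is largely confounded with cell type as well. B cell array 1 was the only B cell array with high Xist, and it also stood apart in the markers above. The part of other cells in the values below was not tested. In bulk samples fewer cells of a type and less RNA per cell cannot be told apart.

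**Figure D1:**
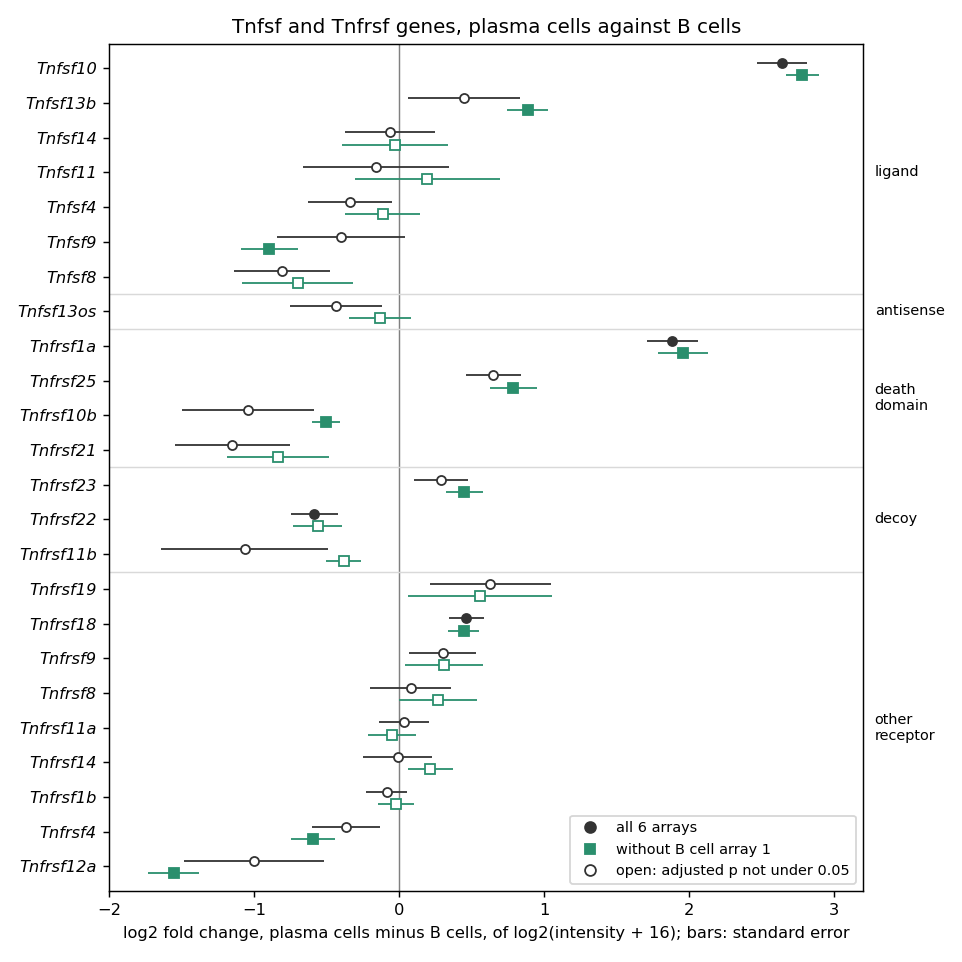
Log2 fold change (plasma cells minus B cells, of log2 intensity + 16) of the 24 genes by role, with bars for the standard error, using all 6 arrays (circles) or without B cell array 1 (squares); filled symbols have an adjusted p under 0.05. Tnfsf10 at 2.64 and Tnfrsf1a at 1.88 lie to the right of all others, and their circles and squares nearly coincide.

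Among the ligands, Tnfsf10 (TRAIL, which binds death and decoy receptors of the same family) was the one that rose. It was at 2069, 2069 and 1739 on the plasma cell arrays and at 370.1, 277 and 264 on the B cell arrays. All plasma cell arrays lay above all B cell arrays, with B cell array 1 the highest of its group. The means were 1959 ± 190.4 (SD, n = 3) and 304 ± 57.8, a log2 fold change of 2.64 ± 0.17 (SE, adjusted p = 0.000201). The other probe sets of the gene gave 2.51 ± 0.22 and 2.57 ± 0.34 and were also called, in a fit of single probe sets in which 13.4% of all were called higher. One of them was at 226, 219 and 196 in plasma cells and at 14.1, 26.9 and 34.4 in B cells, where it lay within background on array 1. The gene was called in all 16 alternative settings, with a log2 fold change from 2.47 to 2.79. The summed granulocyte markers were 8781, 21019 and 15220 on the plasma cell arrays and 13134, 2973 and 1958 on the B cell arrays. Not every marker followed the sum. Csf3r was lower in plasma cells, at 27.3, 13.2 and 40.0 against 150.7 and 142 on B cell arrays 2 and 3. Elane was no higher on plasma cell arrays 1 and 3 than on those B cell arrays. The part of granulocytes in the Tnfsf10 difference was not tested.

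Tnfrsf1a, which encodes the death domain receptor TNFR1 for TNF and lymphotoxin, had the other large difference. It was at 279, 212 and 204 on the plasma cell arrays and at 57.6, 53.5 and 41.7 on the B cell arrays. The groups did not overlap, and every array lay over background. The means were 232 ± 41.3 (SD, n = 3) and 50.9 ± 8.24, a log2 fold change of 1.88 ± 0.17 (SE, adjusted p = 0.000694). It was called in all 16 alternatives, and its log2 fold change was lowest, at 1.36, with a pseudocount of 64 and highest, at 2.16, with a pseudocount of 1. The gene has 1 probe set, so the alternatives that average probe sets or leave some out could not change its log2 fold change. Granulocyte markers summed to 8781, 21019 and 15220 on plasma cell arrays 1, 2 and 3 and to 13134, 2973 and 1958 on B cell arrays 1, 2 and 3. The part of granulocytes in the Tnfrsf1a difference was not tested. Tnfrsf1b, which encodes TNFR2, the other TNF receptor, which has no death domain, was at 428, 517 and 413 in plasma cells and at 526, 454 and 461 in B cells. These groups overlapped (log2 fold change -0.09 ± 0.14, adjusted p = 0.690), and the interval of 1 SE on either side spans 0. A dimmer probe set of Tnfrsf1b had 0.50 ± 0.21 (adjusted p = 0.143), and 0.65 with an adjusted p of 0.0422 without B cell array 1, so its probe sets differed in sign.

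Tnfrsf18, which encodes GITR, a costimulatory receptor best known on regulatory T cells, was at 1023, 1017 and 1158 in plasma cells and at 750.1, 741 and 817 in B cells. Every plasma cell array lay above every B cell array, by a small margin. The means were 1066 ± 79.6 (SD, n = 3) and 769 ± 41.3, a log2 fold change of 0.46 ± 0.12 (SE, adjusted p = 0.0340). Tnfrsf18 also has 1 probe set, so averaging probe sets or leaving some out could not change its log2 fold change. The direction was the same in all 16 alternatives, but the call was lost in 7 of them. Leaving out an array ended it for B cell array 2 (adjusted p = 0.109), B cell array 3 (0.0676) and plasma cell arrays 1 (0.0986), 2 (0.0919) and 3 (0.108). Median centring (0.140) and the replicate block (0.0912) ended it too, and without B cell array 1 it held (0.0246). T and NK cell markers summed to 6769, 587 and 641 on the B cell arrays and to 1399 to 2704 on the plasma cell arrays. Within that marker list Cd4 was at 23.8, 13.3 and 14.3 on the B cell arrays and at 311, 393 and 459 on the plasma cell arrays. All other measured markers of the list were highest on B cell array 1. Cd3e was at 1965.5, 27.2 and 36.5 on the B cell arrays and at 225, 175 and 502 on the plasma cell arrays. The part of T cells in the Tnfrsf18 difference was not tested. Tnfrsf4, which encodes OX40 and is the neighbouring protein-coding gene of Tnfrsf18, was at 207, 182 and 149 in plasma cells and at 166, 272 and 281 in B cells.

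**Figure D2:**
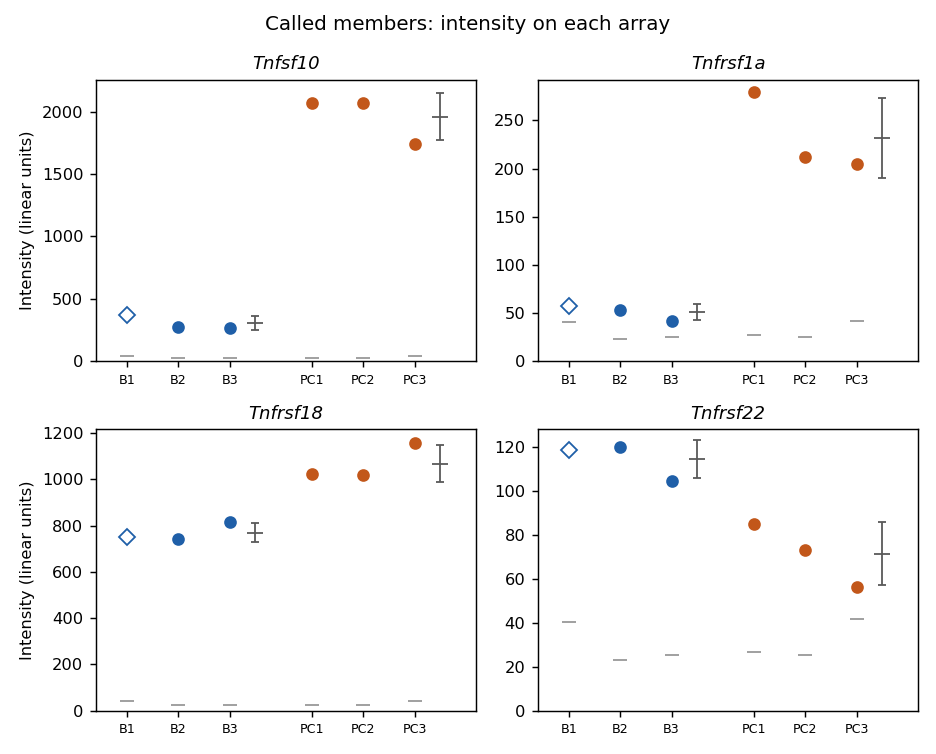
Intensity (linear units) of the 4 called genes on B cell arrays 1 to 3 (blue, array 1 as an open diamond) and plasma cell arrays 1 to 3 (orange), with mean and SD of each group beside the points and grey dashes at the background of each array. In each panel the groups are separate, widely for Tnfsf10 (1739 to 2069 against 264 to 370.1) and narrowly for Tnfrsf22 (56.4 to 85.0 against 104 to 120.0).

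The promoters of the 3 genes that rose are shown because these members moved in the same direction. RefSeq's GRCm38.p6 table gives 250 bases before and 50 after the annotated start, 5′ to 3′ on the gene's strand. Capitals mark matches to 4 motifs searched on both strands, the interferon-stimulated element ISRE (GAAA, any 2 bases, GAAA), the STAT site GAS (TTCNNNGAA), a kB site (GGGA, any 2 bases, TTCC) and an AP-1 site (TGANTCA). Tnfsf10 lies at chr3:27316827-27317126, Tnfrsf1a at chr6:125349473-125349772 and Tnfrsf18 at chr4:156026072-156026371, all on the plus strand.
Tnfsf10: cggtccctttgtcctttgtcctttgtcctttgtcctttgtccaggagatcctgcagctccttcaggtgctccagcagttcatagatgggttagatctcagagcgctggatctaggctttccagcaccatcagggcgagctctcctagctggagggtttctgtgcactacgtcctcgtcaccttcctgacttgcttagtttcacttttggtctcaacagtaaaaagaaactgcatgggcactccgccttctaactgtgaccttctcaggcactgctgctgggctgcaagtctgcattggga
Tnfrsf1a: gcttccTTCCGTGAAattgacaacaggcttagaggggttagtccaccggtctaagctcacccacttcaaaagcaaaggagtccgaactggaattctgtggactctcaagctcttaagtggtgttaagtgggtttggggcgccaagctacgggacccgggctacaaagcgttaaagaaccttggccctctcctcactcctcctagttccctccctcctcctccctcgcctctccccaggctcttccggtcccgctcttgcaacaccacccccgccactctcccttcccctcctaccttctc
Tnfrsf18: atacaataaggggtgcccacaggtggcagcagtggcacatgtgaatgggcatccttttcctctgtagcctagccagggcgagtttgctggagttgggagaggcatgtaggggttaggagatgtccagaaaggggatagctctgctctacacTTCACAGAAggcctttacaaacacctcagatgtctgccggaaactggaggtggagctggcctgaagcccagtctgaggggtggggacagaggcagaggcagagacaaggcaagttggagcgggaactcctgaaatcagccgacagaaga
The Tnfrsf1a window has a GAS match at bases 7 to 15 and the Tnfrsf18 window at bases 152 to 160, and no motif overlapped another. The Tnfsf10 window holds none of the 4 letter patterns. Of 32851 promoters of that length, 8.3% held the GAS pattern, 3.44% the ISRE, 1.47% the kB and 7.81% the AP-1 pattern. For 18 of the 24 genes 22 promoters were listed, and of these promoters 6 held GAS, 3 ISRE, 5 AP-1 and 0 kB. A match describes letters in a window and is not evidence of a bound site.

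The other death domain receptors did not pass the test. Tnfrsf10b, which encodes the mouse TRAIL receptor, was at 39.3, 37.7 and 33.0 in plasma cells and at 213, 59.0 and 58.3 in B cells. All plasma cell arrays lay below all B cell arrays, and B cell array 1 was far above the other arrays. The log2 fold change was -1.04 ± 0.46 (adjusted p = 0.146), and without B cell array 1 it was smaller but called, -0.50 ± 0.09 (adjusted p = 0.0109, from 0.0109 to 0.723 over the alternatives). Its other probe set, near background, had 0.11 ± 0.21. The ligand Tnfsf10 and this receptor therefore had opposite signs in the probe sets used, the receptor without a call over all arrays.

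Tnfrsf21, which encodes death receptor 6, was at 101, 82.6 and 196 in plasma cells and at 448, 207 and 242 in B cells. The groups did not overlap, but plasma cell array 3 came close to B cell array 2. The log2 fold change was -1.15 ± 0.40 (adjusted p = 0.0783), and its other probe set had -1.25 ± 0.40 (0.0698). It was called without plasma cell array 3, at -1.48 (adjusted p = 0.0456), with median centring (0.0358) and with array weights (0.0222), and the highest adjusted p over the alternatives was 0.217. Without B cell array 1, the highest of its group, the fall was smaller and not called, at -0.835 (adjusted p = 0.122). The other probe set then had -1.04 (0.123 in the fit of single probe sets). Tnfrsf25, which encodes death receptor 3, a receptor mainly of T cells, was within background on all B cell arrays, at 27.8, 19.4 and 14.8, and over it on all plasma cell arrays, at 37.1, 35.0 and 52.0. It was at least 1.42-fold higher in plasma cells, with an adjusted p of 0.0502 over all arrays and 0.0157 without B cell array 1, and from 0.00404 to 0.140 over the alternatives. "At least" folds use intensities with no constant added, and the dim group is raised to each array's background.

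Among the 3 decoy receptor genes 1 fell and 0 rose (12.3% and 17.6% of all genes). Tnfrsf22, a mouse decoy receptor for TRAIL, was at 85.0, 73.0 and 56.4 in plasma cells and at 119, 120.0 and 104 in B cells. Every plasma cell array lay below every B cell array, with means of 71.5 ± 14.4 (SD, n = 3) and 114 ± 8.65. The log2 fold change was -0.59 ± 0.16 (SE, adjusted p = 0.0404). The call was lost in 11 of the 16 alternatives, with adjusted p up to 0.164. Leaving out B cell array 1 (0.0501), 2 (0.120) or 3 (0.0756) ended it, as did leaving out plasma cell array 1 (0.0526), 2 (0.111) or 3 (0.102). The other probe sets of the gene had -0.17 and -0.20, the latter within background on all arrays. A brighter probe set annotated to both Tnfrsf22 and its neighbour and paralog Tnfrsf23 was at 160.2, 147 and 150.4 in plasma cells and at 293, 249.5 and 260.0 in B cells. In the fit of single probe sets, in which 12.8% were called lower, it had -0.75 ± 0.13 (adjusted p = 0.00877). Which of the paralogs that signal belongs to cannot be told apart. The probe set of Tnfrsf23 alone was within background on all B cell arrays, at 32.2, 22.2 and 15.2, and reached 30.7, 34.6 and 28.3 in plasma cells, over background on 2 arrays (0.29 ± 0.19, adjusted p = 0.307). Without B cell array 1 it was called higher (0.45, adjusted p = 0.0425, from 0.0308 to 0.606 over the alternatives).

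Tnfrsf11b, which encodes osteoprotegerin, the secreted decoy for RANKL, was within background on all plasma cell arrays, at 20.8, 24.0 and 21.5. On the B cell arrays it was at 190.1, 28.8 and 39.0. The high value rested on B cell array 1, 5.61 times the mean of the other B cell arrays. The log2 fold change was -1.07 ± 0.58 (adjusted p = 0.225) with all arrays and -0.38 ± 0.12 (0.0581, from 0.0581 to 0.380 over the alternatives) without that array. Stromal and endothelial markers, 11 measured, summed to 2097 on B cell array 1, to 1574 and 1538 on the others and to 1227 to 1348 on the plasma cell arrays. On the log2(intensity + 16) scale 3 of those markers were at least 2-fold higher on B cell array 1 than the mean of the other B cell arrays, Tek, Col1a1 and Col1a2.

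Several members were low on B cell array 1 and higher on arrays 2 and 3. Tnfrsf12a, which encodes Fn14, the receptor for TWEAK, was at 73.5, 63.1 and 98.2 in plasma cells and at 70.4, 257 and 259 in B cells. B cell array 1 lay among the plasma cell arrays, so the groups overlapped (-1.001 ± 0.48, adjusted p = 0.182). Without it the log2 fold change was -1.56 ± 0.18 (adjusted p = 0.0021, from 0.000568 to 0.386 over the alternatives), and the other probe set had -2.42 (0.00641). Tnfsf9, which encodes the costimulatory ligand 4-1BBL, was at 102, 94.3 and 146 in plasma cells and at 69.3, 209.8 and 236 in B cells. Here B cell array 1 was the lowest of all 6 arrays (-0.40 ± 0.44, adjusted p = 0.546). Without it Tnfsf9 was called lower at -0.90 ± 0.20 (adjusted p = 0.0181, from 0.00657 to 0.878 over the alternatives). Tnfrsf4, given above, had the same order, with B cell array 1 below plasma cell arrays 1 and 2 (-0.37 ± 0.24, adjusted p = 0.305). Without that array it had -0.59 ± 0.15 (adjusted p = 0.0291, from 0.0141 to 0.646 over the alternatives). Tnfrsf9, the receptor 4-1BB that pairs with Tnfsf9, read 75.5, 59.5 and 34.7 in plasma cells and 41.9, 43.0 and 38.9 in B cells, with overlapping groups (0.30 ± 0.23, adjusted p = 0.386).

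Tnfsf13b, which encodes the B cell survival factor BLyS, was at 105, 117 and 86.1 in plasma cells and at 143, 45.3 and 50.6 in B cells. It had the opposite pattern, with B cell array 1 above all other arrays (0.45 ± 0.39, adjusted p = 0.437). Without that array it was called higher, at 0.88 ± 0.14 (adjusted p = 0.00669, from 0.00261 to 0.804 over the alternatives). Another probe set was also highest on B cell array 1, at 218, with 48.5 and 45.8 on arrays 2 and 3, but was lower in plasma cells, at 26.3, 37.0 and 40.0 (-0.33 without array 1, adjusted p = 0.154). The direction for Tnfsf13b thus depends on the probe set. In total, without B cell array 1, 6 of the 24 genes were called higher and 4 lower, where 22.7% and 21.1% of all genes were. On the log2(intensity + 16) scale, 4 of the genes were at least 2-fold higher on that array and 2 at least 2-fold lower than the mean of the other B cell arrays, against 14.9% and 4.5% of all genes.

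**Figure D3:**
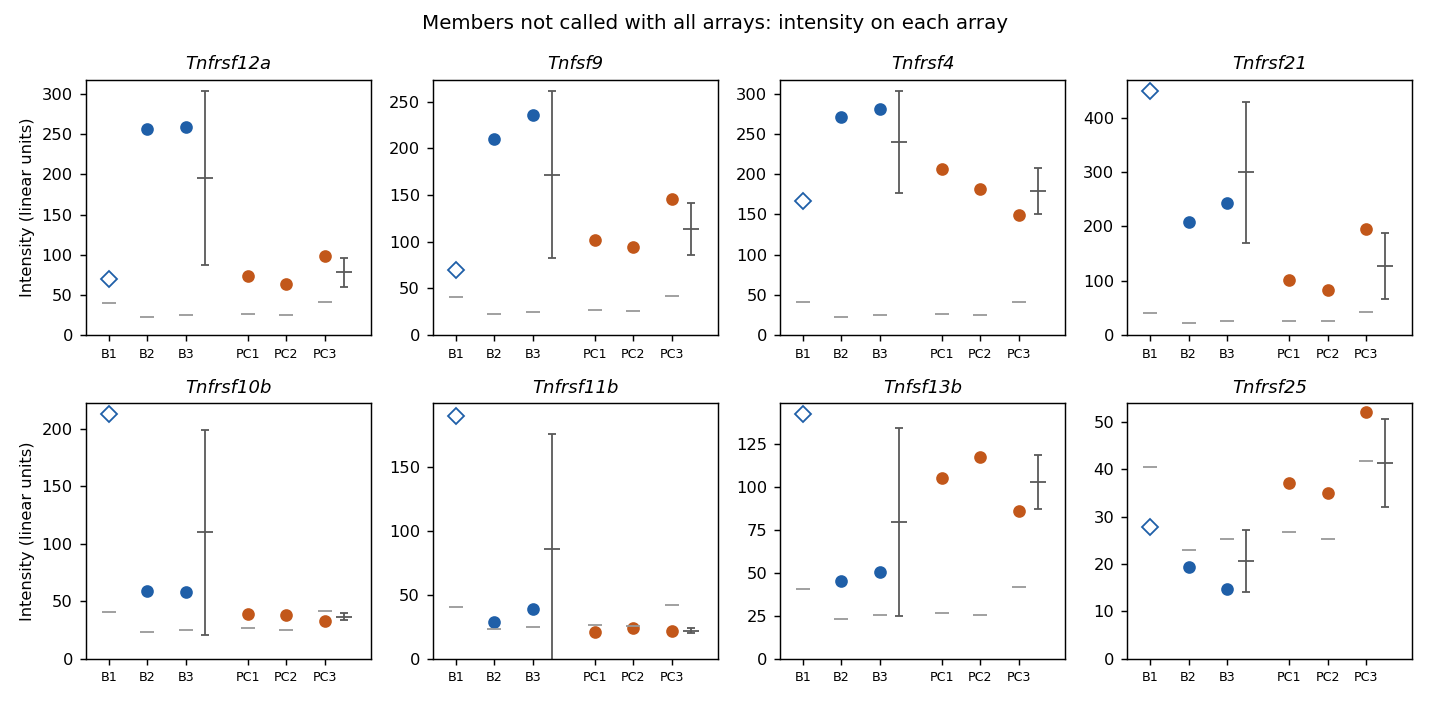
Intensity (linear units) of 8 genes that were not called with all arrays, drawn like the called genes (B cell array 1 as an open diamond, plasma cells in orange, mean and SD beside the points, grey dashes at background; the SD bar of Tnfrsf11b is cut off at 0). Tnfrsf12a, Tnfsf9 and Tnfrsf4 were low on B cell array 1 (70.4, 69.3 and 166) and Tnfrsf10b, Tnfrsf11b and Tnfsf13b were high on it (213, 190.1 and 143).

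**Figure D4:**
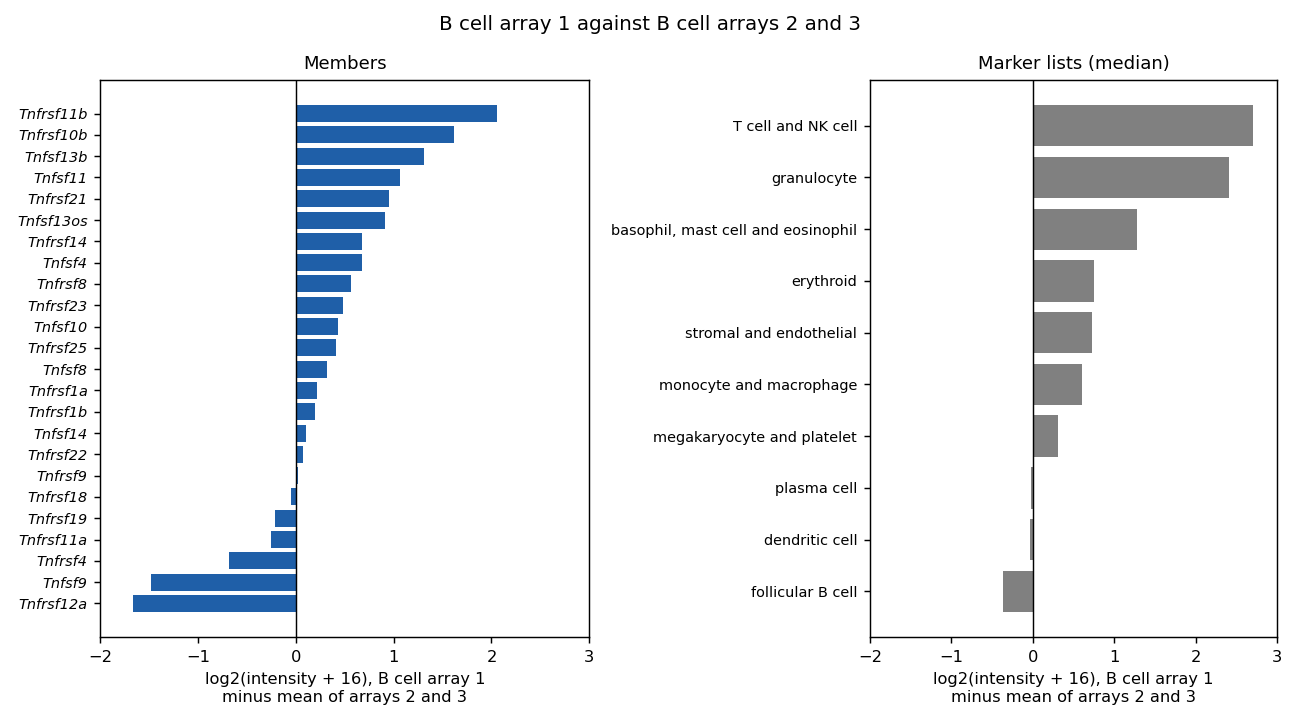
Difference between B cell array 1 and the mean of B cell arrays 2 and 3 in log2(intensity + 16), for each of the 24 genes (left) and as the median of each marker list (right). The genes range from -1.66 for Tnfrsf12a to 2.05 for Tnfrsf11b, and the marker lists from -0.36 for follicular B cells to 2.70 for T and NK cells.

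The remaining genes were not called with all arrays. Tnfrsf14, which encodes the herpesvirus entry mediator HVEM, was at 95.8, 72.3 and 67.2 in plasma cells and at 113, 64.4 and 65.0 in B cells (-0.01 ± 0.24, adjusted p = 0.979). Tnfrsf19, which encodes TROY, was spread widely over the plasma cell arrays, at 34.0, 87.9 and 141, against 38.7, 44.8 and 50.5 in B cells. Its call appeared only without plasma cell array 1 among the 16 alternatives (1.08, adjusted p = 0.0371, up to 0.811 over the alternatives), and with all arrays it had 0.63 ± 0.41 (0.314). Tnfsf8, which encodes the CD30 ligand, was over background on all B cell arrays, at 44.9, 40.5 and 26.0, and on plasma cell array 2 alone among 6.4, 32.5 and 8.81 (-0.81 ± 0.33, adjusted p = 0.128). It was called without plasma cell array 2 (-1.15, adjusted p = 0.0237, from 0.0237 to 0.320 over the alternatives). Tnfsf4, the OX40 ligand gene, and Tnfsf14, the gene of LIGHT, lay within background on all 6 arrays, at 5.32 to 30.5 and 6.37 to 36.0. Tnfrsf8, the CD30 gene, ran from 8.97 to 31.1 and was within background on 4 arrays, and Tnfrsf11a, the gene of the RANKL receptor RANK, ran from 15.2 to 26.2 and was within it on 5. Tnfsf11, which encodes RANKL itself, was uneven within both groups, at 27.8, 3.9 and 43.9 in plasma cells and at 52.1, 12.4 and 21.6 in B cells. The antisense transcript Tnfsf13os had 38.2, 26.4 and 24.8 in plasma cells and 77.6, 25.5 and 43.8 in B cells, with overlapping groups. A probe set shared by Tnfsf12 (TWEAK), Tnfsf13 (APRIL) and Tnfsfm13 was at 54.1, 50.6 and 29.8 in plasma cells and at 71.9, 61.9 and 68.6 in B cells (-0.48 ± 0.20, adjusted p = 0.140 in the fit of single probe sets).

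**Figure D5:**
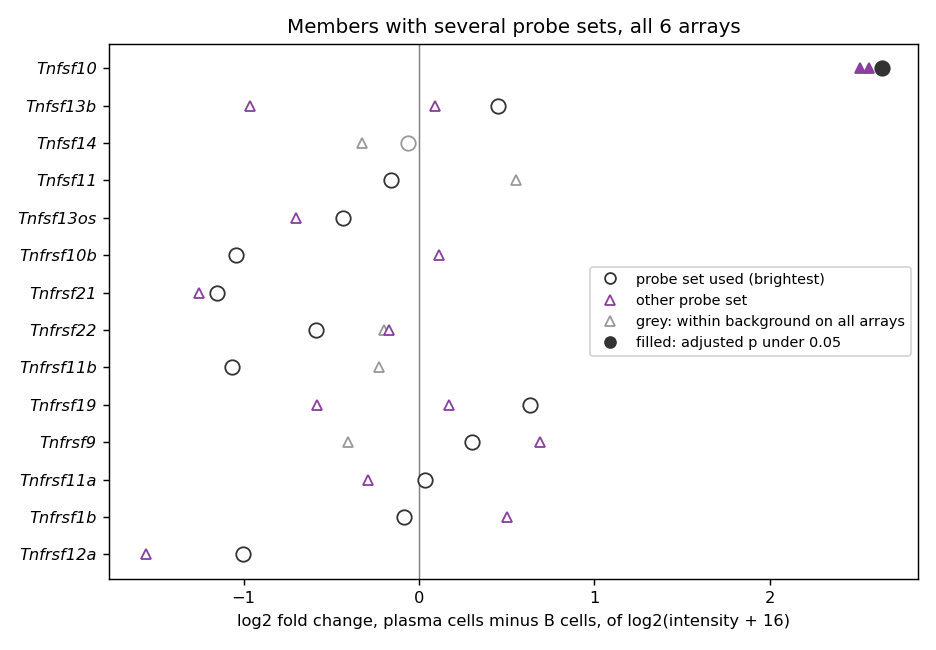
Log2 fold change (plasma cells minus B cells, of log2 intensity + 16, all 6 arrays) of each probe set of the 14 genes with several, each fitted by itself and adjusted over 45037 probe sets. The 3 probe sets of Tnfsf10 lie together between 2.51 and 2.64 and are the only filled symbols, while those of Tnfsf13b, Tnfsf11, Tnfrsf10b, Tnfrsf19, Tnfrsf9, Tnfrsf11a and Tnfrsf1b lie on both sides of 0. The probe set used for Tnfrsf22 is open here, with an adjusted p of 0.0502 over probe sets.

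For comparison, 15 TNF superfamily genes with other symbols were measured, of which 1 rose and 6 fell, where 17.6% and 12.3% of all genes did. Their median log2 fold change was -0.69 with all arrays and -0.17 without B cell array 1, against -0.06 and 0.01 over all genes. Both medians are the value of Edar, which lay over background only on B cell array 1, at 48.3, so they do not give a typical size of fall. The ligand genes Lta and Ltb, which encode the lymphotoxins, and Tnf were among those that fell. Lta was at 12.6, 37.5 and 26.6 in plasma cells and at 1614, 2503 and 2265 in B cells (-5.71 ± 0.29, adjusted p = 9.36e-05), and lay over background on 1 plasma cell array. Tnf was at 28.1, 9.99 and 50.8 in plasma cells and at 376, 1580 and 1737 in B cells (-4.60 ± 0.67, adjusted p = 0.00367). Ltb fell by 2.91 ± 0.30, and Ngfr, the neurotrophin receptor gene, was at least 4.47-fold lower, since all plasma cell arrays lay within background. The gene that rose was Fas, the death receptor for Fas ligand, at 898, 993 and 841 against 552, 329.8 and 281 (1.25 ± 0.26, adjusted p = 0.0148). That call was lost without B cell array 2 (adjusted p = 0.0569), plasma cell array 1 (0.0563) or plasma cell array 2 (0.0615), and without B cell array 1 it was 1.53 (0.000737), with a range from 0.00011 to 0.0615 over the alternatives. Thus Tnfrsf1a was higher on the plasma cell arrays while Tnf and Lta, which encode its ligands, were lower on the same arrays.

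Of 23 listed genes that carry signals from these receptors 20 were measured, and 3 rose and 4 fell, beside 17.6% and 12.3% of all genes. Their median log2 fold change was -0.10 with all arrays and -0.20 without B cell array 1. Those that fell were the adaptor gene Traf5 (-2.96 ± 0.21, adjusted p = 0.000263), Map3k14, which encodes the kinase NIK (-2.14 ± 0.33), the kinase gene Ikbkb (-1.58 ± 0.19) and the ubiquitin ligase gene Birc3 (-0.88 ± 0.12). Those that rose were Map3k7, which encodes the kinase TAK1 (0.71 ± 0.15), and the deubiquitinase genes Tnfaip3 (0.52 ± 0.14) and Cyld (0.50 ± 0.12). No gene of the list was called higher without plasma cell array 1, 2 or 3, and 1 was without B cell array 2. Without B cell array 1, 9 were called lower, where 21.1% of all genes were. Fadd and Casp8, the adaptor and caspase of the death receptors, were at 398, 379 and 351 against 185, 313 and 310.0, and at 2515, 2163 and 2360.4 against 2835, 3704 and 3674, and neither was called with all arrays (adjusted p = 0.159 and 0.0502). Over the alternatives the adjusted p ran from 0.0423 to 0.335 for Fadd and from 0.00139 to 0.165 for Casp8, which was called lower without B cell array 1 (-0.65, adjusted p = 0.00571). The receptors left out of the family here averaged 8730 ± 288 (SD, n = 3) on plasma cell arrays against 33.4 ± 5.22 on B cell arrays for Tnfrsf17, 6972 ± 155 against 4860 ± 314 for Tnfrsf13b, and 6849 ± 218 against 9393 ± 940 for Tnfrsf13c.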

How the data were processed

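The deposited values are intensities on a linear scale, 1 per probe set and array. The labels' protocols name Ambion and NuGEN kits for RNA extraction and amplification with biotin label. Summarisation, background correction and normalization are not given in the sources used here. Of 45101 probe sets, 34945 other than controls had 1 symbol, updated to RefSeq (GRCm38.p6) through Entrez identifiers. The brightest probe set stood for a gene, by the mean of log2(intensity + 16) over the arrays, and other probe sets served as a check. Groups were compared with limma 3.58.1 in R 4.3.3 (lmFit, then eBayes with no trend), and p-values were adjusted by Benjamini-Hochberg over 18193 genes. SE belongs to the fitted log2 fold change. Background is the 95th percentile of 27 bacterial control probe sets on each array. The code was tested on simulated data. The labels do not say whether replicates came from different mice. The p-values therefore reflect only how much these samples vary, possibly for technical reasons, and the number of arrays limits the precision. Nothing in the labels pairs the samples beyond a shared replicate number, so the number entered only 1 alternative, the replicate block. Deviations from the group mean on arrays with the same number had correlations of 0.0484, 0.00469 and 0.0458. With 3 arrays per group and B cell array 1 far from the others, these correlations cannot exclude a pairing.

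The members and lists were chosen with earlier results of these data known. Every measured member was named. Array values were set for called members and for members with an array at least 4-fold above the others of its group (Tnfrsf11b). Values of other members, and of Fadd, Casp8, Xist, Cd4, Csf3r, Elane, Tek, Col1a1 and Col1a2, were chosen after they were seen. Of the other lists up to 4 called genes in each direction were named. The fit of single probe sets was added after the data were seen.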

Additional observations from a re-analysis of the deposited data

How the results depend on the processing

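Tnfsf10 and Tnfrsf1a were called higher in all 16 alternatives. The counts of members called higher and lower moved from 3 and 1 to 5 and 0 with quantile normalization and to 6 and 6 with array weights. B cell array 1 had a weight of 0.0938 in that last setting, and the other arrays had 0.852 to 3.9. Array weights are therefore close to leaving out B cell array 1 and are not a separate check beside it. No member was called lower with the mean of probe sets, with eBayes with trend (0) or with the replicate block (0). Leaving out 1 array gave 2 to 6 members called higher and 0 to 4 lower. Over all genes array weights gave 4840 higher and 4654 lower, and leaving out 1 array gave 2224 to 4121 higher and 1347 to 3830 lower. Of the TNF superfamily genes with other symbols 2 were called higher with quantile normalization, 4 with array weights and 0 to 3 without 1 array. Of the signalling genes 0 were called higher with median centring and with the replicate block, and 6 higher and 9 lower with array weights; leaving out 1 array gave 0 to 3 higher and 4 to 9 lower. With the replicate block the call of Tnfrsf18 and that of Tnfrsf22 were lost, and over all genes 2457 were called higher and 1664 lower.

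The sign turned only for members not called with all arrays, in 22 of the fits of single members. Array weights gave -0.169 for Tnfrsf11a, 0.262 for Tnfrsf14, 0.228 for Tnfsf11 and 0.0462 for Tnfsf13os. The mean of probe sets gave -0.128 for Tnfrsf11a, 0.208 for Tnfrsf1b, 0.197 for Tnfsf11 and -0.141 for Tnfsf13b. Quantile normalization gave 0.11 for Tnfrsf14 and 0.045 for Tnfsf14, median centring -0.0116 for Tnfrsf11a, and leaving out x and s probe sets 0.113 for Tnfrsf10b. Without 1 array the log2 fold change ranged from -0.0817 to 0.137 for Tnfrsf11a, from -0.138 to 0.215 for Tnfrsf14, from -0.19 to 0.267 for Tnfrsf8, from -0.499 to 0.296 for Tnfsf11 and from -0.364 to 0.244 for Tnfsf14. The cause was not tested for any of these changes. Background correction and slide could not be varied, and signals near background limit Tnfsf4, Tnfsf14, Tnfrsf8, Tnfrsf11a, Tnfrsf23 and Tnfrsf25.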
